A study of Xenopus laevis with 16 samples.

Results

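The Sizzled genes szl.L and szl.S are the homeologs of 1 gene in Xenopus laevis, an allotetraploid frog whose duplicated chromosomes carry the suffixes .L and .S. They were followed in explanted animal caps through the probe sets that the array annotation assigns to them. They are 2 of 7531 genes named by a probe set with a single symbol, and each had 1 such probe set among the 15491 tested. A further probe set was annotated to both homeologs and is described beside them without being given to either gene. Its array name shares a root with that of the szl.L probe set, and their values correlated at r = 0.981 over the 16 arrays. Those readings may not be independent. The genes were selected on their fall with foxD5 over 8 sibling pairs, so their foxD5 values are a description with no test. Their responses to Noggin, and the difference between their foxD5 effects with and without Noggin, were not used in that choice and were tested.

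Sizzled is a secreted protein of the Frizzled-related family. In the frog gastrula its gene is transcribed on the ventral side under BMP signalling. The protein inhibits the tolloid-type metalloproteases that cleave Chordin, an antagonist of BMP ligands, and so acts as a negative-feedback regulator of the pathway. Animal caps are blastula ectoderm, which forms epidermis under its own BMP signals when cultured alone. Noggin is a secreted antagonist that binds BMP ligands, and FoxD5, a forkhead protein made in early neural ectoderm, is encoded by genes now named foxd4l1.

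Total RNA from pooled caps was hybridised to 16 Affymetrix Xenopus arrays of 1 colour, with 4 arrays per group and 4 groups. The foxD5 caps came from embryos whose blastomeres each received 100 pg of foxD5 mRNA when the embryo had 2 cells. These caps were cut at stages 8 to 9 and grown to stages 11.5 to 13.0. The foxD5 plus Noggin caps had the same injection and were kept in 200 ng/ml Noggin to stages 11.5 to 12.5. The uninjected plus Noggin caps were siblings of those, kept in the same Noggin to stages 11.5 to 12.5. Siblings in Noggin had the same stage label only in pair 1. In pair 2 the foxD5 caps were labelled 11.5 to 12.5 and the uninjected caps 11.5 to 12. In pair 3 the labels were 12 to 12.5 and 11.5 to 12, and in pair 4 they were 12.5 and 12 to 12.5. The part of stage in the foxD5 changes was not tested. The uninjected caps were siblings of the foxD5 caps, received neither agent and carry no labelled stage. Sibling numbers give 4 pairs that had no Noggin and another 4 that had it. No group received a control mRNA, so injection and foxD5 cannot be told apart, and clutch cannot be told apart from Noggin.

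Pools held 45 to 171 caps, and the extremes were uninjected sample 1 and its foxD5 sibling. Caps of both samples of pair 4 in Noggin are described as small. Nothing in the labels says that the samples came from separate clutches, so the p-values given here apply only to these samples. Those of the foxD5 comparisons rest on the spread of changes within sibling pairs. Those across cultures rest on the spread of samples from different pairs. The source label names cochlea, the sample descriptions name animal caps, and the descriptions were followed. Of 12 inner ear markers only otx1.L and gjb2.L had a probe set, while 16 genes of animal cap ectoderm were measured. Which genes have a probe set is fixed by the array and says nothing about the tissue. Among the probe sets of the injected gene, foxd4l1.1.S read 38.1 to 134 in foxD5 caps and 20.9 to 70.6 in uninjected caps. In Noggin it read 16.1 to 169 in foxD5 caps and 11.3 to 255 in uninjected caps, so its ranges overlapped in both cultures. A probe set annotated to foxd4l1.1.L and foxd5b gave a foxD5 change of 0.49 ± 0.17 (SE, limma adjusted p = 0.243), that of foxd4l1.1.S was 0.44 ± 0.29 (limma adjusted p = 0.579) and that of foxd4l1.2.L -0.19 ± 0.12 (limma adjusted p = 0.575). Whether these probes cover the injected sequence was not tested.

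All 3 Sizzled probe sets read lower in foxD5 caps than in uninjected siblings, and the difference was present in both cultures. Values are the deposited signal, an intensity on a linear scale, and are listed for pairs 1 to 4. The szl.L probe set read 29.2, 42.0, 45.6 and 28.6 in foxD5 caps, against 139, 105, 64.9 and 200.1 in uninjected caps. Every foxD5 array lay below every uninjected array, with means of 36.4 ± 8.72 and 127 ± 57.2 (SD, n = 4 each). In Noggin, szl.L read 14.5, 60.2, 10.3 and 0.741 in foxD5 caps, against 80.6, 323, 40.6 and 12.2 in uninjected caps. Here the groups overlapped, and the uninjected signals spread from 12.2 to 323, but each foxD5 sample lay below its own sibling.

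The szl.S probe set read 34.2, 42.6, 57.5 and 38.5 in foxD5 caps, against 156, 114, 49.0 and 169 in uninjected caps. Pair 3 was the exception, with the foxD5 sample above its sibling, and it made the 2 groups overlap. In Noggin, szl.S read 18.5, 40.8, 15.3 and 19.9 in foxD5 caps, against 67.3, 202, 58.7 and 34.7 in uninjected caps. All 4 foxD5 samples lay below their siblings, and the groups overlapped only through foxD5 sample 2 and uninjected sample 4. Group means of szl.S were 43.2 ± 10.1 in foxD5 caps and 122 ± 54.1 in uninjected caps, and in Noggin 23.6 ± 11.6 and 90.7 ± 75.5 (SD, n = 4 each).

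The probe set annotated to both homeologs read 107, 136, 140 and 103 in foxD5 caps, against 734, 381, 347 and 927 in uninjected caps. The lowest uninjected array stood well above the highest foxD5 array. In Noggin it read 89.7, 244, 28.6 and 21.1 in foxD5 caps, against 415, 1241, 182 and 42.8 in uninjected caps. The order of the pairs was the same in both Noggin groups, with pair 2 highest, then pairs 1, 3 and 4. Fewer cells that transcribe Sizzled and less Sizzled RNA per cell cannot be told apart in pooled caps.

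**Figure D1:**
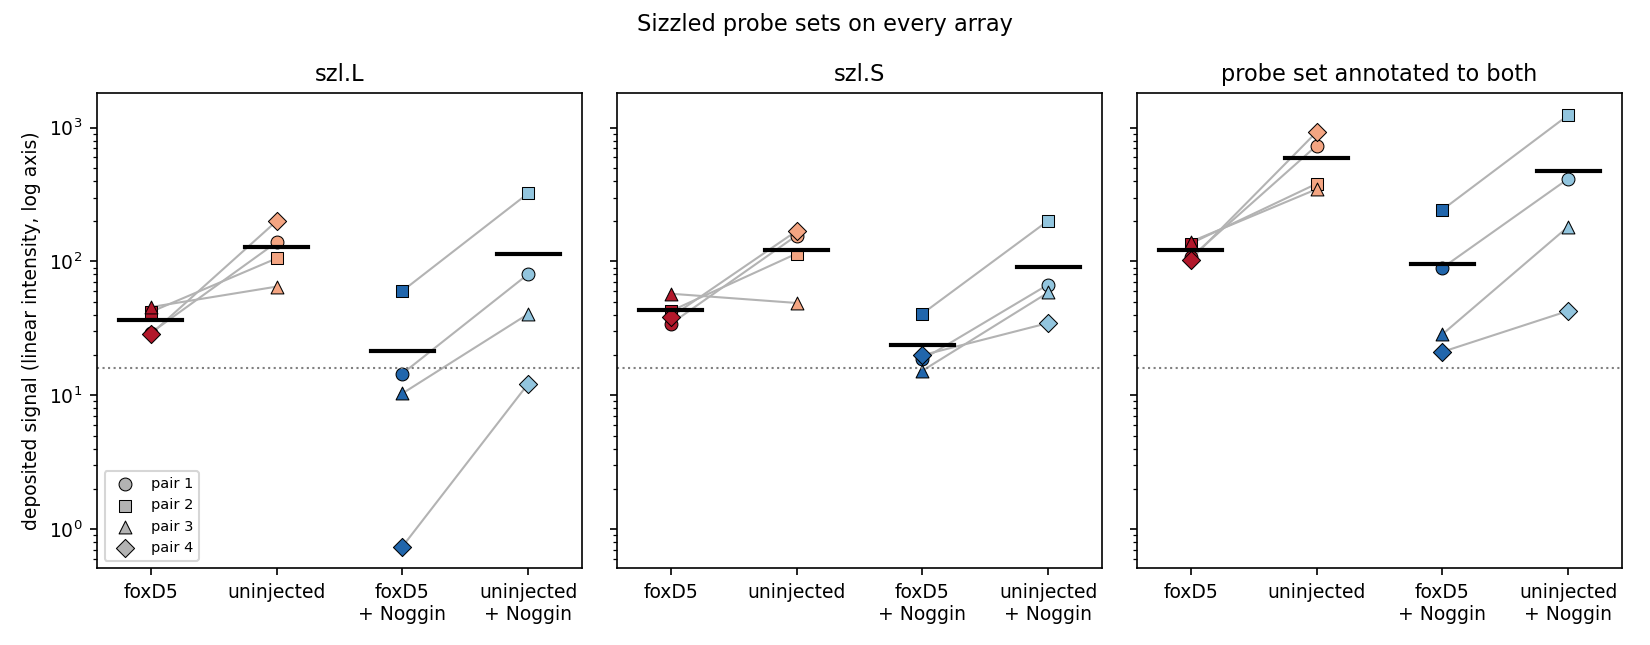
Deposited signal (linear intensity on a log axis) of each Sizzled probe set in the 4 groups, with 1 point per array, marker shapes for pairs 1 to 4, grey lines joining siblings and black bars at group means (n = 4). The dotted line marks the pseudocount of 16. The szl.L signals of foxD5 caps lie between 28.6 and 45.6 without Noggin, under all uninjected signals, and the Noggin groups spread more widely.

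Within sibling pairs, the change was taken as the difference of log2(signal + 16) after quantile normalisation. The szl.L values without Noggin were -1.72, -1.23, -0.38 and -2.13 in pairs 1 to 4, and those in Noggin were -1.51, -2.07, -1.08 and -0.67. All 8 were negative, with a mean of -1.35 ± 0.63 (SD, n = 8 pairs). The szl.S values were -1.75, -1.34, 0.18 and -1.63 without Noggin and -1.14, -1.93, -1.19 and -0.65 in Noggin. Of these, 7 of 8 were negative, with a mean of -1.18 ± 0.68. The probe set annotated to both gave -2.66, -1.58, -1.12 and -2.84 without Noggin and -1.97, -2.14, -2.03 and -0.81 in Noggin. Its mean was -1.90 ± 0.70, negative in 8 of 8 pairs.

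On the linear scale a fold was taken where both siblings had a signal of at least 16. The signal of szl.L was then 1.42-fold to 6.99-fold lower in foxD5 caps, with a median of 4.76-fold over 5 pairs. In 2 further pairs the foxD5 signal lay under 16, and against that floor szl.L was at least 5.04-fold lower in pair 1 and at least 2.54-fold lower in pair 3 in Noggin. No fold was taken for pair 4 in Noggin, where both szl.L signals lay under 16. For szl.S the foxD5 signal was up to 4.96-fold lower with a median of 3.63-fold over 7 pairs, and in pair 3 without Noggin the ratio was 0.853, which is higher in foxD5 caps. Pair 3 in Noggin was at least 3.67-fold lower. The probe set annotated to both was 2.02-fold to 8.96-fold lower, with a median of 4.86-fold over 8 pairs. Ordered by the fitted foxD5 change over both cultures, the probe set annotated to both was number 1 from the bottom of all 15491, szl.L number 11 and szl.S number 21. This order belongs to the contrast on which the genes were chosen, and nothing is tested with it. In that contrast limma called 0.491% of all probe sets lower and 0.884% higher at an adjusted p under 0.05.

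**Figure D2:**
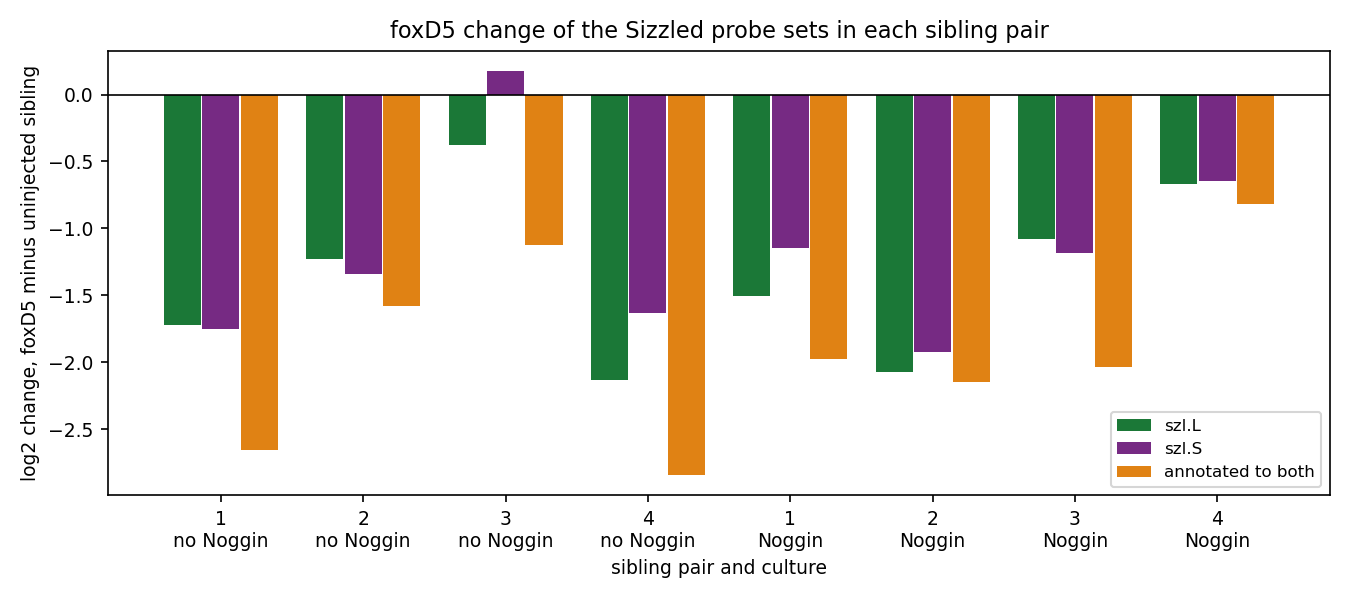
Log2 change of the 3 Sizzled probe sets, foxD5 minus uninjected sibling, in each of the 8 sibling pairs. All bars point down except that of szl.S in pair 3 without Noggin (0.18), and the probe set annotated to both has the longest bar in every pair.

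The homeologs were compared pair by pair. The szl.L minus szl.S difference of the foxD5 changes averaged -0.17 ± 0.27 (SD, n = 8 pairs), ranged from -0.56 to 0.11, and was negative in 5 of 8 pairs. This too is a description, since foxD5 chose both genes. Over the 16 arrays the normalised values of szl.L and szl.S correlated at r = 0.954, and at 0.927 after the 4 group means were removed. Arrays of a sibling pair share a clutch, and cross-hybridisation between the homeologs was not tested. The array holds 1017 genes with a probe set for each homeolog, with a median r of 0.231 over the 16 arrays. The fitted foxD5 effects of szl.L and szl.S differed by 0.167 in size, above the median of 0.131 over these genes. That median covers all 1017 genes, whatever the size of their foxD5 change. The r over 16 arrays includes the foxD5 shift on which Sizzled was chosen, so it is no test of likeness. Other BMP-responsive genes of this kind, named after their values were seen, were ventx2.1 (0.914), dlx3 (0.866), bambi (0.820), msx1 (0.738) and id2 (0.305). In the same order, the foxD5 effects of their homeologs differed by 0.442, 0.384, 0.482, 0.891 and 0.409, each more than for Sizzled. Since Sizzled was chosen on these foxD5 effects and the other genes were picked with their values seen, this is no test of likeness either. The dimmer homeolog of msx1, msx1.S, had a mean signal of 14.8, under the pseudocount of 16, which limits its change.

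The homeologs' responses to Noggin were compared array by array. The szl.L minus szl.S difference changed by -0.18 with Noggin in uninjected caps (exact two-sided permutation p = 0.657, adjusted p = 0.8 over 2 comparisons). In foxD5 caps it changed by -0.05 (exact two-sided permutation p = 0.8, adjusted p = 0.8). With 4 arrays against 4 the smallest possible p is 0.0286.

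Whether foxD5 acted on Sizzled differently in Noggin was tested as the difference of its effects, in Noggin minus without. The difference was 0.04 ± 0.38 (SE) for szl.L, with a 95% interval from -0.80 to 0.87 (limma adjusted p = 0.997). For szl.S it was -0.09 ± 0.41, with an interval from -0.97 to 0.80 (limma adjusted p = 0.992). The probe set annotated to both gave 0.31 ± 0.41, with an interval from -0.58 to 1.2 (limma adjusted p = 0.977). None of the 3 passed, and limma called 0% of all probe sets. An unadjusted p under 0.05 was seen in 765 of 15491, near the share that this limit gives by chance. The intervals are wide enough to hold differences of more than 0.5 in either direction.

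Noggin itself was tested between different sibling pairs. In uninjected caps szl.L was lower in Noggin by -0.60 ± 0.52 (SE, interval -1.70 to 0.50, limma adjusted p = 0.819), which did not pass. The szl.S value was -0.42 ± 0.39 (interval -1.24 to 0.40, limma adjusted p = 0.831). The probe set annotated to both gave -1.05 ± 0.63 (interval -2.37 to 0.26, limma adjusted p = 0.702). These 3 did not pass, in a comparison where 0.00646% of all probe sets were called. Uninjected plus Noggin sample 2 carried the highest Sizzled signals of all 16 arrays, on each of the 3 probe sets. Without that sample's pair the values were -1.27 for szl.L, -0.86 for szl.S and -1.75 for the probe set annotated to both, and without pair 4 in Noggin they were -0.041, -0.12 and -0.31. None of these passed, and leaving out 1 sample or pair moved the values over this whole range.

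The uninjected plus Noggin samples differed in stage as well as in Sizzled signal. Sample 2, with 323 for szl.L, was labelled stage 11.5 to 12.0, and sample 4, with 12.2, was labelled stage 12.0 to 12.5. Sample 3 had the stage of sample 2 and a szl.L signal of 40.6, and sample 1, labelled 11.5 to 12.5, had 80.6. The part of stage in these values was not tested.

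In foxD5 caps, Noggin was accompanied by szl.L values of -0.57 ± 0.52 (SE, interval -1.67 to 0.53, limma adjusted p = 0.736). The szl.S value was -0.51 ± 0.39 (interval -1.33 to 0.31, limma adjusted p = 0.662), and that of the probe set annotated to both was -0.74 ± 0.63 (interval -2.06 to 0.57, limma adjusted p = 0.699). None passed, against 0.129% of all probe sets called. With 1 sample or pair left out, the values ranged from -0.99 to -0.23 for szl.L, from -0.72 to -0.26 for szl.S and from -1.31 to -0.31 for the probe set annotated to both. The lowest of each came without pair 2 in Noggin, and the highest without pair 4 in Noggin, or for szl.S without foxD5 sample 3. Caps with both agents had the lowest mean signals, and the change from untreated caps was -1.93 ± 0.52 for szl.L, -1.65 ± 0.39 for szl.S and -2.79 ± 0.63 for the probe set annotated to both. These values hold the foxD5 effect that chose the genes and are given with no test.

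Each agent alone was also set against the other, foxD5 without Noggin minus Noggin without foxD5. This comparison shares the foxD5 arrays with the one on which the genes were chosen, so its values are a description with no test. The differences were -0.76 ± 0.52 for szl.L (SE), -0.71 ± 0.39 for szl.S and -1.0 ± 0.63 for the probe set annotated to both. They rested on single pairs. Without pair 4 in Noggin they were -1.33, -1.01 and -1.74, and without pair 2 in Noggin -0.096, -0.27 and -0.30.

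**Figure D3:**
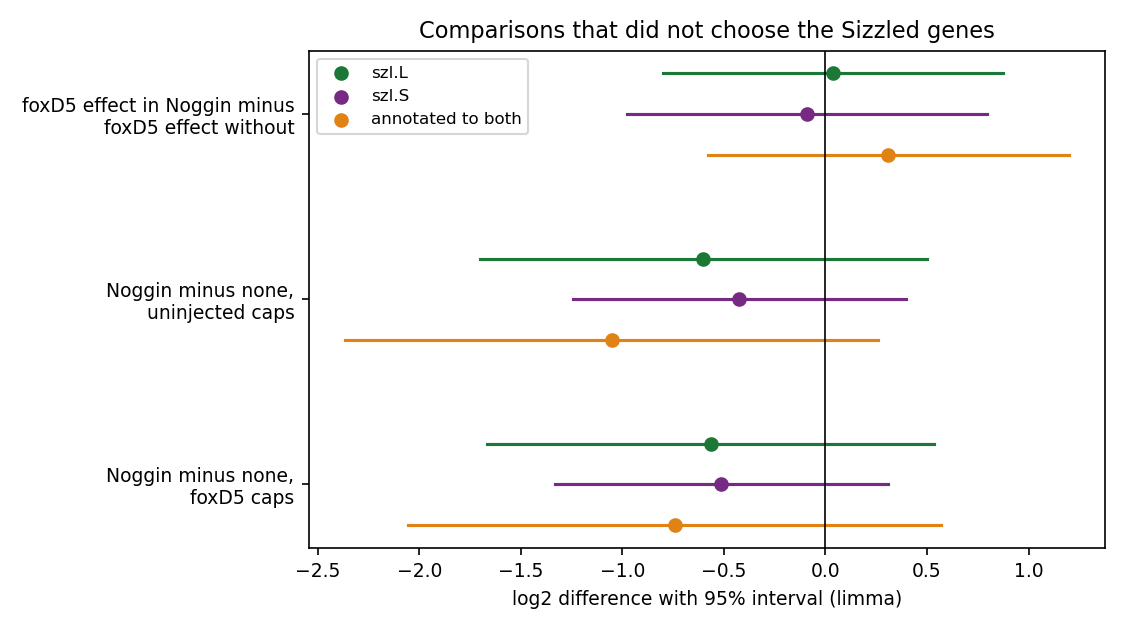
Log2 differences of the 3 Sizzled probe sets with 95% intervals from limma, in the 3 comparisons that did not choose the genes. Every interval crosses 0, and the differences between foxD5 effects lie nearest to it, at 0.04, -0.09 and 0.31.

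The rest of the BMP pathway was read from lists by role, with the brightest probe set annotated to that gene alone. Over both cultures, 7 of 70 listed genes fell in foxD5 caps by limma and 0 rose, where 0.491% of all probe sets were lower. The lists were chosen with earlier results of these data known, so setting these shares side by side is no test of the pathway. The listed genes were also read on their brightest probe set, while the share covers all probe sets, dim ones included. The median change of the 70 was -0.10, beside -0.01 for all probe sets. Of 7 ligand genes 1 fell, bmp7.2.L, at 252 ± 46.6 in foxD5 caps against 856 ± 292 in uninjected caps (-1.53 ± 0.15 SE, limma adjusted p = 4.9e-04), with a negative change in all 8 pairs. For bmp4.S, a ligand gene of ventral fate, the change was -1.06 ± 0.26 (limma adjusted p = 0.0858), negative in 6 of 8 pairs.

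Among 15 genes of the Chordin and tolloid system and other extracellular or membrane antagonists, 0 passed by limma and 4 had an unadjusted p under 0.05. Such a p was seen in 1792 of all 15491 probe sets. These 4 were dand5.S (-0.64 ± 0.16), bambi.L (-0.88 ± 0.23), twsg1.L (-0.62 ± 0.17) and bambi.S (-0.40 ± 0.13), with limma adjusted p from 0.101 to 0.206. A brighter probe set annotated to both bambi homeologs, named after its values were seen, lay outside these counts. It did pass, at -1.06 ± 0.19 (limma adjusted p = 0.0154). The gene of Chordin itself was not among the 15 genes measured, so its change is not given here. BAMBI is a pseudoreceptor that, like Sizzled, dampens BMP signalling and is induced by it, and Twisted gastrulation binds both Chordin and BMP ligands. The proteases on which Sizzled acts are encoded by bmp1 and the tolloid-like genes. Their values, named after they were seen, were -0.07 ± 0.12 for bmp1.L, -0.01 ± 0.17 for bmp1.S, 0.34 ± 0.22 for tll1.S and -0.04 ± 0.17 for tll2.L, none of which passed.

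Of 8 receptor genes 0 passed by limma, and 1 had an unadjusted p under 0.05. Of 8 genes for Smads and their regulators 1 fell, smad7.L, which encodes an inhibitory Smad (-0.72 ± 0.14, limma adjusted p = 0.0306), with a negative change in all 8 pairs. It still passed in 3 of the 8 fits that left out a sibling pair, and its call was lost with a pseudocount of 1 and with no replicate block, at a limma adjusted p of up to 0.265 over all these fits. For smad9.S the change was -0.92 ± 0.21 (limma adjusted p = 0.0576). Of 6 other secreted Frizzled-related genes 0 passed by limma and 0 had an unadjusted p under 0.05, with changes from -0.16 for sfrp2.S to 0.30 for sfrp1.L.

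Of 26 BMP target genes 5 fell and 21 did not pass, with a median of -0.36. The falls were foxi1.L, which specifies ionocytes (-1.80 ± 0.20), tfap2a.L, which encodes the ectodermal factor AP-2 alpha (-1.33 ± 0.17), msx1.L, a homeobox gene of ventral and border ectoderm (-1.29 ± 0.19), gata2.L (-1.28 ± 0.20) and, named after its values were seen, tbx3.S (-0.94 ± 0.20). Limma adjusted p ranged from 9.1e-04 to 0.0438, and all 5 were lower in 8 of 8 pairs. With a sibling pair left out, the first 4 passed in each of 8 fits and tbx3.S in 1. The sizes for foxi1.L and msx1.L are less fixed than their calls. Mean signals of foxi1.L were 16.8 in foxD5 caps and 9.86 in foxD5 plus Noggin caps, and those of msx1.L were 18.7 and 22.7. Over the settings of processing, the foxi1.L change ran from -2.93 to -0.97 and that of msx1.L from -1.79 to -0.73. Under other settings the tbx3.S call was lost in 6 of 7, with a limma adjusted p of up to 0.368. The call of gata2.L was lost with a pseudocount of 1 and with no replicate block, where its highest limma adjusted p was 0.0987. A dimmer probe set of gata2.L, named after its values were seen, also fell (-1.35 ± 0.25, limma adjusted p = 0.0236). The ventx genes, named after their values were seen, are homeobox genes that respond directly to BMP in ventral cells. They gave -0.50 ± 0.16 for ventx2.1.L, -0.05 ± 0.14 for ventx2.1.S, -0.09 ± 0.12 for ventx1.1.L, 0.42 ± 0.14 for ventx2.2.L and 0.22 ± 0.18 for ventx3.2.S, and none passed. Signals of ventx2.1.S were 580 ± 143 in foxD5 caps and 565 ± 138 in uninjected caps (SD, n = 4 each). Those of ventx2.1.L were 402 ± 87.8 and 588 ± 183. Of the 8 pairs, the change was negative in 8 for ventx2.1.L, 5 for ventx1.1.L, 4 for ventx2.1.S, 2 for ventx3.2.S and 1 for ventx2.2.L.

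None of the 70 genes passed in either Noggin comparison or in the difference of foxD5 effects by limma. Those with an unadjusted p under 0.05 numbered 3 for Noggin in uninjected caps, 5 for Noggin in foxD5 caps and 4 for the difference. Over all 15491 probe sets the numbers were 1275, 1825 and 765, in the same order. For foxD5 alone minus Noggin alone 0 passed, against 0.516% of all probe sets called. There 12 of the 70 had an unadjusted p under 0.05, beside 2086 of all 15491 probe sets. In that comparison the receptor gene bmpr1a.L, named after its values were seen, read lower in foxD5 caps than in uninjected plus Noggin caps. Its dimmer probe set gave -1.0 ± 0.19 (SE, limma adjusted p = 0.0286) and its brightest -0.93 ± 0.21 (limma adjusted p = 0.0519). For foxD5 over both cultures the brightest gave -0.13 ± 0.13 (limma adjusted p = 0.739). For Noggin in uninjected caps it gave 0.78 ± 0.21 (limma adjusted p = 0.267).

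**Figure D4:**
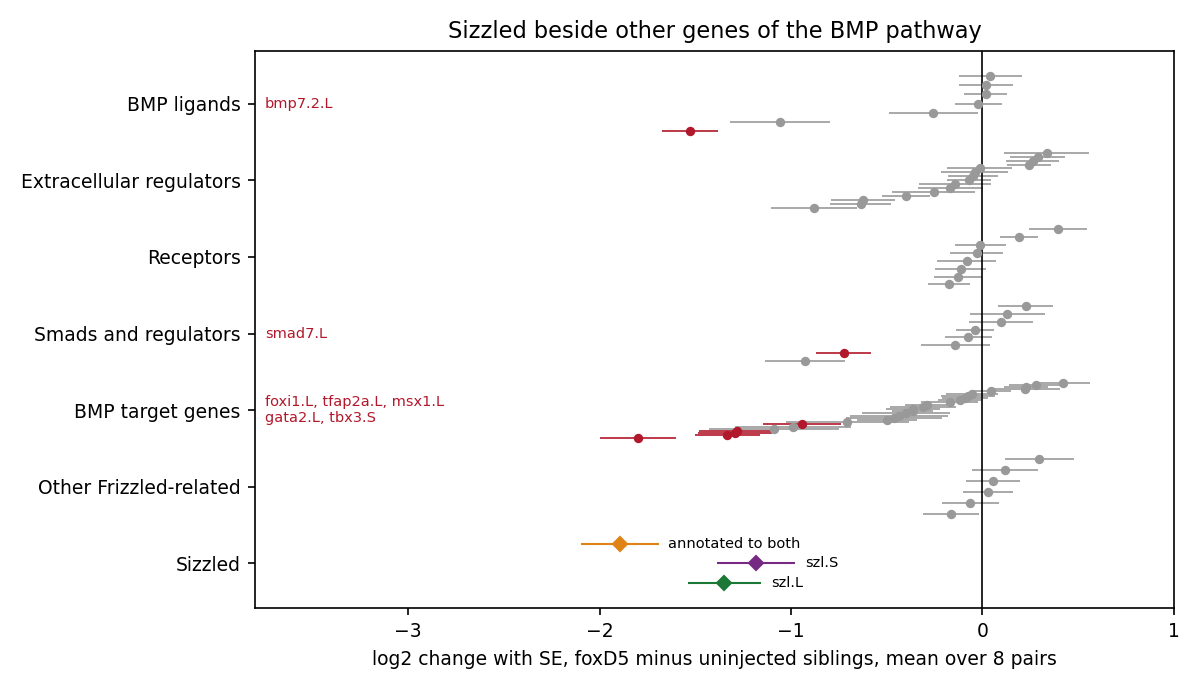
Log2 change with SE, foxD5 minus uninjected siblings over 8 pairs, of the BMP pathway genes by role (1 point per gene) and of the 3 Sizzled probe sets at the bottom. Red points are the 7 genes below a limma adjusted p of 0.05, named at the left, and the Sizzled points are a description. Sizzled lies at -1.35, -1.18 and -1.90, beside bmp7.2.L and foxi1.L.

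Markers of other cell types and of the ectoderm itself were summed on every array. Over these lists together, 4 of 73 genes fell with foxD5 and 4 rose by limma. Of all probe sets 0.491% were lower and 0.884% higher. These lists too were chosen with earlier results of these data known, so the shares are a description. Of 16 genes of animal cap ectoderm 3 fell with foxD5 and 13 did not pass, with a median of -0.70. The falls were foxi1.L and tfap2a.L, both already counted among the BMP target genes, and grhl3.L, a gene of the epidermal barrier (-0.95 ± 0.12, limma adjusted p = 0.0019). The keratin gene krt70.S, named after its values were seen, fell on a dimmer probe set (-0.59 ± 0.13, limma adjusted p = 0.0431), but its brightest, by which it is counted among the 13, gave -0.17 ± 0.10 (limma adjusted p = 0.527). Their summed signal ranged from 11802 to 15134 in foxD5 caps and from 12758 to 23156 in uninjected caps. In Noggin it ranged from 13176 to 17139 in foxD5 caps and from 12665 to 26582 in uninjected caps. The highest 3 sums were those of uninjected plus Noggin sample 2 and of uninjected samples 1 and 4, the arrays that also held the highest 3 szl.L signals. Below these the orders differed, as uninjected sample 2 had the next szl.L signal, 105, and a sum of 12758, while uninjected plus Noggin sample 4 had a szl.L signal of 12.2 and a sum of 15623. The part of the ectoderm markers in the Sizzled values was not tested.

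Of 18 genes of ventral and lateral mesoderm and blood 1 fell, foxf1.L (-0.77 ± 0.12, limma adjusted p = 0.00797), and the median was -0.05. With no replicate block foxf1.L did not pass (limma adjusted p = 0.0627), and its change ran from -1.54 to -0.32 with the pseudocount. Their sums overlapped, at 378 to 697 in foxD5 caps and 447 to 680.4 in uninjected caps. In Noggin the sums were 393 to 483 in foxD5 caps and 543 to 732 in uninjected caps, which did not overlap. The largest parts of these sums were spib.S and bmp4.S, the ligand gene described above. In Noggin the mean signal of spib.S was 286 in foxD5 caps and 289 in uninjected caps. That of bmp4.S was 75.0 in foxD5 caps and 190 in uninjected caps. Of 15 dorsal mesoderm genes 2 rose, foxa4.L (0.76 ± 0.11) and tbxt.S (0.65 ± 0.13). The foxa4.L signal was under 6 on every uninjected array and its change ran from 0.26 to 2.34 with the pseudocount. That of tbxt.S passed in 2 of 8 fits that left out a pair, and did not pass with a pseudocount of 64 or with no replicate block. Among 15 endoderm genes the 1 rise was that of vegt.L, which encodes a T-box factor (1.72 ± 0.19, limma adjusted p = 9.1e-04). The endoderm list as a whole did not rise, as its median was -0.14 and 9 of its 15 changes were negative. Of the 15, 7 had an unadjusted p under 0.05, beside 1792 of all 15491 probe sets. Of 8 genes of ciliated cells and ionocytes 1 fell, foxi1.L, which is also counted in the ectoderm and BMP target lists. Of the inner ear genes gjb2.L rose (0.67 ± 0.14, limma adjusted p = 0.041), a call lost with a pseudocount of 1 or 64 and with no replicate block. The part of these cell types in the Sizzled values was not tested either.

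The 6 genes whose pattern was most like the mean of szl.L and szl.S over the 16 arrays were gli3.L, bmp7.2.L, foxi1.L, tfap2a.L, grhl1.L and bambi.L. Their r was 0.954, 0.936, 0.925, 0.916, 0.904 and 0.897. With the 4 group means removed, r ranged from 0.867 for tfap2a.L to 0.931 for bmp7.2.L. These values are part of the likeness that chose the 6 genes, and arrays of a pair share a clutch. A probe set annotated to both bambi homeologs, named after its values were seen, had an r of 0.934 and fell with foxD5 by 1.06 on the log2 scale (-1.06 ± 0.19, limma adjusted p = 0.0154). The most opposite pattern was that of vegt.L, at r = -0.939.

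**Figure D5:**
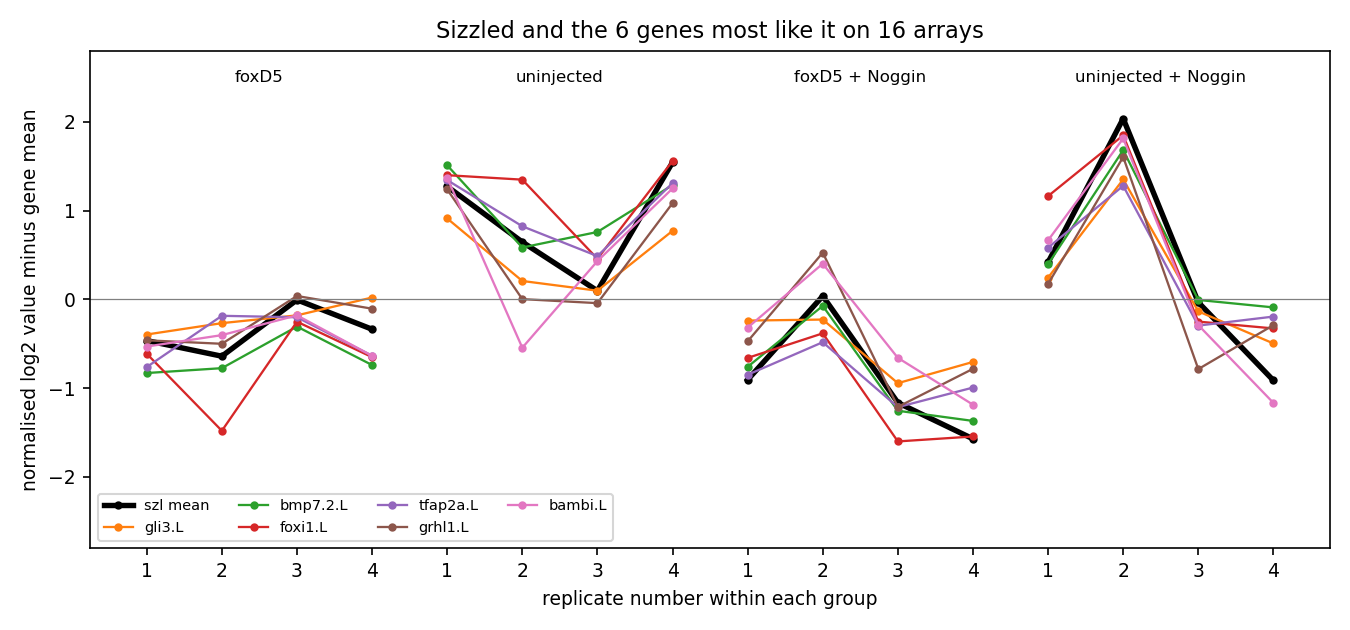
Normalised log2 value minus the gene's mean over 16 arrays, for the mean of szl.L and szl.S (thick black line) and the 6 genes most like it, by replicate number within the 4 groups. Lines only connect arrays of a group for reading. With r from 0.897 to 0.954, the Sizzled line and 5 of the 6 others peak at uninjected plus Noggin sample 2, and that of tfap2a.L peaks at uninjected sample 1.

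The chromosomal neighbours of Sizzled were looked at last. In the RefSeq annotation of the assembly Xenopus_laevis_v10.1, used only for the order of genes, the nearest 5 genes on each side of either homeolog number 20, of which 6 had a probe set. Their foxD5 changes ran from -0.21 for plxnb2.S to 0.09 for mapk12.S, the gene next to szl.S, and 0 passed by limma or had an unadjusted p under 0.05. Beside szl.L, hdac10.L gave -0.02 ± 0.15.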

How the data were processed

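The authors' deposited values are an intensity per probe set, on a linear scale, with a trimmed mean of 150.02 on every array. The software behind them is not given in the sources used here. From these values log2(signal + 16) was computed and quantile normalised, because array medians ran from 5.79 to 6.35. Of 15611 probe sets, 120 controls were left out. The platform annotation names 1 gene for 9304, several for 195 and none for 5992. A mean signal under 16 was seen in 28.5% of those tested, and the number of arrays limits precision.

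Comparisons used R 4.3.3 and limma 3.58.1, two-sided, adjusted over 15491 probe sets by Benjamini and Hochberg at 0.05. The foxD5 comparisons had sibling pair as a fixed block, as the labels pair every control with injected siblings by number. In each culture the injected sample that lacks a number was taken as number 1. Deviations of siblings from their group means correlated at -0.115 in pair 1 without Noggin, where the number of the injected sample was assumed. Pair 1 in Noggin, also with an assumed number, gave 0.453, and the remaining pairs gave 0.203 to 0.670. Comparisons across cultures had sibling pair as a random block (correlation 0.364). Permutation tests used SciPy 1.17.1.

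The members and lists were chosen with earlier results of these data known. Named were the members, up to 4 genes per list with the smallest p and the 6 most like Sizzled. Alternatives were other normalisations, pseudocounts, blocks, a filter and left-out samples. On simulated data with 200 changed probe sets of log2 size -1, the fit recovered 92.2% for foxD5 over both cultures, 37.2% for Noggin in uninjected caps and 36% in foxD5 caps. The changed probe sets were drawn at random, so these shares are not those for Sizzled. SEs of the Sizzled probe sets in the Noggin comparisons ran from 0.39 to 0.63. Sequences were not used here.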

Additional observations from a re-analysis of the deposited data

Results flagged for a closer look

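In 18 groups of 4 values, each the signals of a Sizzled probe set in a group or its foxD5 changes in a culture, 1 value stood apart from the other 3. It was the foxD5 change of the probe set annotated to both homeologs in pair 4 in Noggin, at -0.81, where the other pairs in Noggin gave -1.97, -2.14 and -2.03. The deposited signals behind it were 21.1 in foxD5 caps and 42.8 in uninjected caps, near the pseudocount of 16. Caps of this pair are labelled as small. Chance marks about 1 in 20 groups in this way.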

How the results depend on the processing

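All foxD5 changes of the 3 Sizzled probe sets over both cultures stayed negative under the 8 other settings, from -1.96 to -0.83 for szl.L, -1.52 to -0.73 for szl.S and -2.10 to -1.53 for the probe set annotated to both, and with any pair left out. With a pseudocount of 1 the szl.L change in Noggin was -2.23 and that of foxD5 plus Noggin against untreated caps -3.12. With a pseudocount of 64 that comparison gave -1.08 for szl.L and -0.99 for szl.S. No Sizzled value of the Noggin comparisons passed, and neither these nor foxD5 alone minus Noggin alone turned sign, under any setting or with any sample left out.

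The differences of foxD5 effects turned sign for szl.L and szl.S. That of the probe set annotated to both did not, at 0.15 to 0.42 under other settings and 0.00085 to 0.62 with a pair left out. For szl.L they were -0.040 with values as deposited, -0.086 with median centring and -0.54 with a pseudocount of 1, and for szl.S 0.020 with a pseudocount of 64. With a pair left out they ranged from -0.22 to 0.36 for szl.L and from -0.29 to 0.35 for szl.S. The homeolog difference in the Noggin response of foxD5 caps was 0.040 with a pseudocount of 64, and with 1 array left out it ranged from -0.27 to 0.18. In uninjected caps that range was -0.41 to 0.084. The cause of these turns was not tested.

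Counts of called probe sets moved more. For foxD5 over both cultures the 213 became 57 with a pseudocount of 1, 67 with no replicate block, and 92 to 393 with a pair left out, lowest without pair 4 and highest without pair 1 of those lacking Noggin. The 5 BMP target genes that fell became 3 with a pseudocount of 1 (without gata2.L and tbx3.S), 3 with no replicate block and 2 in the brighter part of the probe sets, with means over the median. That part leaves out foxi1.L, msx1.L and tbx3.S, which were not tested in it, while tfap2a.L and gata2.L kept their calls. For Noggin in uninjected caps the count of 1 became 0 with a pseudocount of 1, 4 with 64, 2 with no replicate block, 2 with the replicate number as a block, 0 on only the 8 arrays compared, and 0 to 2 with samples left out. For Noggin in foxD5 caps the 20 became 7 with values as deposited, 1 and 193 with a pseudocount of 1 and 64, 96 in the brighter part, 107 with array weights, 63 with the replicate number as a block, 0 on the 8 arrays, and 2 to 23 with samples left out. For foxD5 alone minus Noggin alone the 80 became 40 with values as deposited, 23 with median centring, 1 and 275 with a pseudocount of 1 and 64, 178 in the brighter part, 188 with array weights, 177 with the replicate number as a block, 0 on the 8 arrays, and 1 to 154 with samples left out. The replicate block changed no call of a Sizzled probe set in a tested comparison.

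Among the other named genes, smad7.L lost its call with a pseudocount of 1, with no replicate block, and without pair 3 or 4 lacking Noggin or pair 1, 2 or 4 in Noggin. The call of tbx3.S held without pair 3 in Noggin, of 8 such fits, and with array weights, of 7 other settings. That of tbxt.S ended with a pseudocount of 64, with no replicate block, and without pair 2 or 4 lacking Noggin or any pair in Noggin, and that of gjb2.L with a pseudocount of 1 or 64, with no replicate block, and without pair 2, 3 or 4 lacking Noggin or pair 1, 3 or 4 in Noggin. Those of foxf1.L and gata2.L ended with no replicate block, and that of gata2.L also with a pseudocount of 1. Each Sizzled gene has 1 probe set, so probe sets of a gene could not be compared. Signals under 16, as for szl.L in pair 4 in Noggin, limit the changes.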
